A study of Homo sapiens with 36 samples.

Results

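The genes described here act on triglyceride in lipoproteins: the angiopoietin-like proteins ANGPTL4 and ANGPTL8, the lipases LPL, LIPC and LIPG, the maturation factor LMF1 and the lipase carrier GPIHBP1. These 7 genes were chosen by name, with earlier results of the same data known, among them that ANGPTL4 differed between replicate triplets and ANGPTL8 with insulin. All fitted differences of these 2 genes are therefore descriptions with no test, since they rest on libraries that the choice used. Of the 7 genes, 6 matched a row by Ensembl identifier among the 57771 genes of the table, and GPIHBP1 is not analysed here.

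Triglyceride carried in the blood is hydrolysed at the vessel wall by lipoprotein lipase (LPL), which GPIHBP1 carries across the endothelium. Hepatic lipase (LIPC) and endothelial lipase (LIPG) belong to the same family and act mainly on the remnant and high-density particles. LMF1 is a membrane protein of the endoplasmic reticulum that these lipases need to fold. ANGPTL4 and ANGPTL8 are secreted inhibitors of this system: ANGPTL4 is raised in fasting and acts on LPL directly, whereas ANGPTL8 is raised by feeding and insulin. In the body the liver is a source of LIPC and ANGPTL8, while LPL is made mainly by fat and muscle.

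The 36 RNA libraries came from HepG2-IGF1R-KO, a line derived from human hepatoma cells in which the IGF1R gene was targeted. All groups carry this genotype, and no unedited cells are among the samples. The 4 groups of 9 libraries were untreated cells in normal medium, cells in normal medium given 3 nM human insulin for 18 h, untreated cells in insulin-resistant medium, and cells in insulin-resistant medium given the same insulin. Cells were maintained in DMEM with serum, and the insulin-resistant medium was given for the preceding 72 h and held glucose at 20 mM, human insulin at 1 nM and 3 fatty acids (oleic, linoleic and palmitic acid) at 0.5 mM. The labels do not say whether the insulin of this medium was still present in its untreated cells. The titles number the libraries of each group as biological replicates 1 to 9, which fell into triplets (1-3, 4-6 and 7-9), and nothing in them says what the members of a triplet share. P-values therefore measure the spread between these libraries, which may be partly technical.

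Library totals ran from 26613307 to 116763907 counts, and the IGF1R transcript was read in all libraries at 65.3 to 147 CPM (counts per 1e6 counts of the library, after TMM scaling), which does not check the edit. The 12 hepatocyte markers were read in all libraries, with a summed level of 14200 to 39300 CPM. Transcripts of stromal cells were also abundant in 30 libraries, where 10 stromal markers summed to 15900 to 64800 CPM. In the other 6 libraries (normal medium with insulin, replicates 4-6, and untreated in resistant medium, replicates 1-3) the same sum was 57.4 to 115 CPM, with DCN and POSTN at 0. The hepatocyte sum was 29000 to 39300 CPM in these 6 libraries and 14200 to 28200 CPM in the rest. Most results of the members are given with and without the 6 libraries. For other genes some of the calls that changed are given, and not all. In bulk RNA fewer cells of a type and less RNA per cell cannot be told apart. Replicate 2 of normal medium with insulin also stood apart from its triplet, with a stromal sum of 19000 CPM against 40500 and 43000 CPM. Of the endothelial list KDR was at 0 in 27 libraries and at most 0.0168 CPM, while ESAM was read in all libraries at 3.56 to 27.6 CPM and the rest reached at most 2.87 CPM. Of the adipocyte list ADIPOQ was at 0 in 22 libraries and at most 0.0928 CPM, while GPD1 and CIDEC were read in all, at 15.1 to 56.4 and 1.52 to 9.49 CPM.

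The 250 bases before the annotated start are printed for the 4 genes whose levels carry the results, from RefSeq on GRCh38.p14, 5′ to 3′ on the gene's own (plus) strand. The counts were made on GRCh37, so these windows serve for reading and not for joining. Capitals mark exact matches, on either strand, to the TATA box TATAAA, the CCAAT box, the GC box GGGCGG or GTTAAT, a core of sites for the liver factor HNF1.
ANGPTL8, chr19:11239369-11239618: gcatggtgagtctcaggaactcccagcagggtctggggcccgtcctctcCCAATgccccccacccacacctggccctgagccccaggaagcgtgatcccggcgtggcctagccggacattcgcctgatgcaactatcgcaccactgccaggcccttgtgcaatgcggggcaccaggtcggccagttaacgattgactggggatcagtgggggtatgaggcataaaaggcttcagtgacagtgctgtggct
LIPG, chr18:49561807-49562056: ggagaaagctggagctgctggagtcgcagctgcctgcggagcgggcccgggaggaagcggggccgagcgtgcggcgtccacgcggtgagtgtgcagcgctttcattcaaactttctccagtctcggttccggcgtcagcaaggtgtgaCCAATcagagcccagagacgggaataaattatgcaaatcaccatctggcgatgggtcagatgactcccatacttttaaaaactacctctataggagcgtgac
LIPC, chr15:58431741-58431990: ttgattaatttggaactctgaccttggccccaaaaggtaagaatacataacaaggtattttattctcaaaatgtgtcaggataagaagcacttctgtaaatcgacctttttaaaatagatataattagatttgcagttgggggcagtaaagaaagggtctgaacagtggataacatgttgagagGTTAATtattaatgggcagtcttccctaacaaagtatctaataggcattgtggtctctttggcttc
ANGPTL4, chr19:8363905-8364154: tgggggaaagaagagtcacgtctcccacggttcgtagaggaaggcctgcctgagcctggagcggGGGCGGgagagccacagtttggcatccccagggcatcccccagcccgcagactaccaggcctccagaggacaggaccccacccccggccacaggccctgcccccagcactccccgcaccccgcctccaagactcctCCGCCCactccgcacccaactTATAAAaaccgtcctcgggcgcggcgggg

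The windows differed in base composition, from 36% GC in LIPC to 57.2% in LIPG, 62.4% in ANGPTL8 and 68.8% in ANGPTL4. A CCAAT box was held by ANGPTL8, 201 to 197 bases before the start, and by LIPG, 102 to 98 bases before it. That motif was found in 32.0% of the 35116 RefSeq promoters of the same length. LIPC held a GTTAAT match 66 to 61 bases before its start, as did 6.23% of promoters somewhere in the window. ANGPTL4 held TATAAA 29 to 24 bases before its start, a match found in 10.7% of promoters, and 2 GC boxes, a motif found in 42.6%. Neither the E-box CACGTG nor the forkhead core GTAAACA was found in these 4 windows. Whether any of these matches bears on the levels was not tested.

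ANGPTL8, the feeding-induced inhibitor, was lowest in untreated cells in normal medium. There its level ran from 2.39 to 6.19 CPM with a median of 3.75 CPM. With insulin in normal medium it ran from 11.3 to 27.4 CPM with a median of 13.7 CPM. In resistant medium the untreated cells ran from 9.29 to 19.4 CPM (median 12.9 CPM) and the insulin-stimulated cells from 7.4 to 9.97 CPM (median 9.21 CPM). The untreated cells in normal medium thus lay below every library of the other groups. The ranges with insulin lay apart in the 2 media, with normal medium higher. How many of all genes lay apart in these ways was not counted.

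The fitted log2 fold change of ANGPTL8 with insulin was 2.22 ± 0.20 (SE) in normal medium and -0.70 ± 0.20 in resistant medium. These values are descriptions, since ANGPTL8 was chosen for its response to insulin. Without the 6 libraries low in stromal transcripts they were 1.80 ± 0.15 and -0.31 ± 0.17. The difference between these insulin responses, resistant minus normal medium, was -2.92 ± 0.28 with all libraries and -2.11 ± 0.23 without the 6. Among insulin-stimulated cells the log2 difference of resistant from normal medium was -1.0 ± 0.20, and -0.55 ± 0.16 without the 6. Within the batch dated 22 April the insulin responses were 2.04 and -0.79, and within that of 11 April 2.13 and -0.76.

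Between media in untreated cells the log2 difference of ANGPTL8 was 1.91 ± 0.20, resistant minus normal medium. All 9 libraries in resistant medium lay above all 9 in normal medium, and how many genes did so was not counted. By the edgeR test 13.3% of the 17983 genes were called higher and 8.62% lower in this comparison. The same 9 libraries of untreated normal medium are the reference of this difference and of the insulin response that chose the gene. The difference was 1.56 ± 0.15 without the 6 libraries, 2.07 within the 22 April batch and 1.92 within the 11 April batch. The 24 May batch held 1 triplet of each untreated group, and there ANGPTL8 was 4.45 ± 1.63 CPM (SD, n = 3) in normal medium and 14.1 ± 2.78 CPM in resistant medium.

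ANGPTL8 varied between triplets within a group. In normal medium with insulin the stroma-low triplet 4-6 was at 25.7 ± 1.48 CPM (SD, n = 3) against 15.0 ± 4.59 CPM for replicates 1-3 and 12.5 ± 0.398 CPM for replicates 7-9. In untreated resistant medium the stroma-low triplet 1-3 was at 18.7 ± 0.632 CPM, against 14.1 ± 2.78 and 10.5 ± 1.36 CPM. The highest triplet of each of these groups was thus the one low in stromal transcripts, and the part of stromal content in the level was not tested beyond leaving these libraries out.

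The gene most like ANGPTL8 over the 12 triplet means was ESAM, an adhesion molecule of cell junctions that is also on the endothelial marker list (Pearson r = 0.991 on log2(CPM + 0.5)), followed by SLC2A8, a glucose transporter (0.986), and IL21R, a cytokine receptor (0.986). Correlations over triplet means are descriptions here, since the triplets share libraries, scaling and stromal content. ESAM rose from 4.24 to 6.25 CPM in the triplets of untreated normal medium to 11.3 to 22.5 CPM with insulin. ANGPTL8 lies within DOCK6, on the opposite strand, and the 2 genes share 350 exonic bases in the GRCh38 annotation. DOCK6 was at 26.0 ± 2.54 CPM (SD, n = 9) in untreated normal medium, 34.9 ± 5.45 CPM with insulin, 39.9 ± 3.5 CPM in untreated resistant medium and 34.3 ± 3.71 CPM with insulin there. The libraries keep strand, but whether the counting used it is not given in the sources used here. DOCK6 spanned 1.99-fold between its lowest and highest library, and ANGPTL8 11.5-fold.

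**Figure D1:**
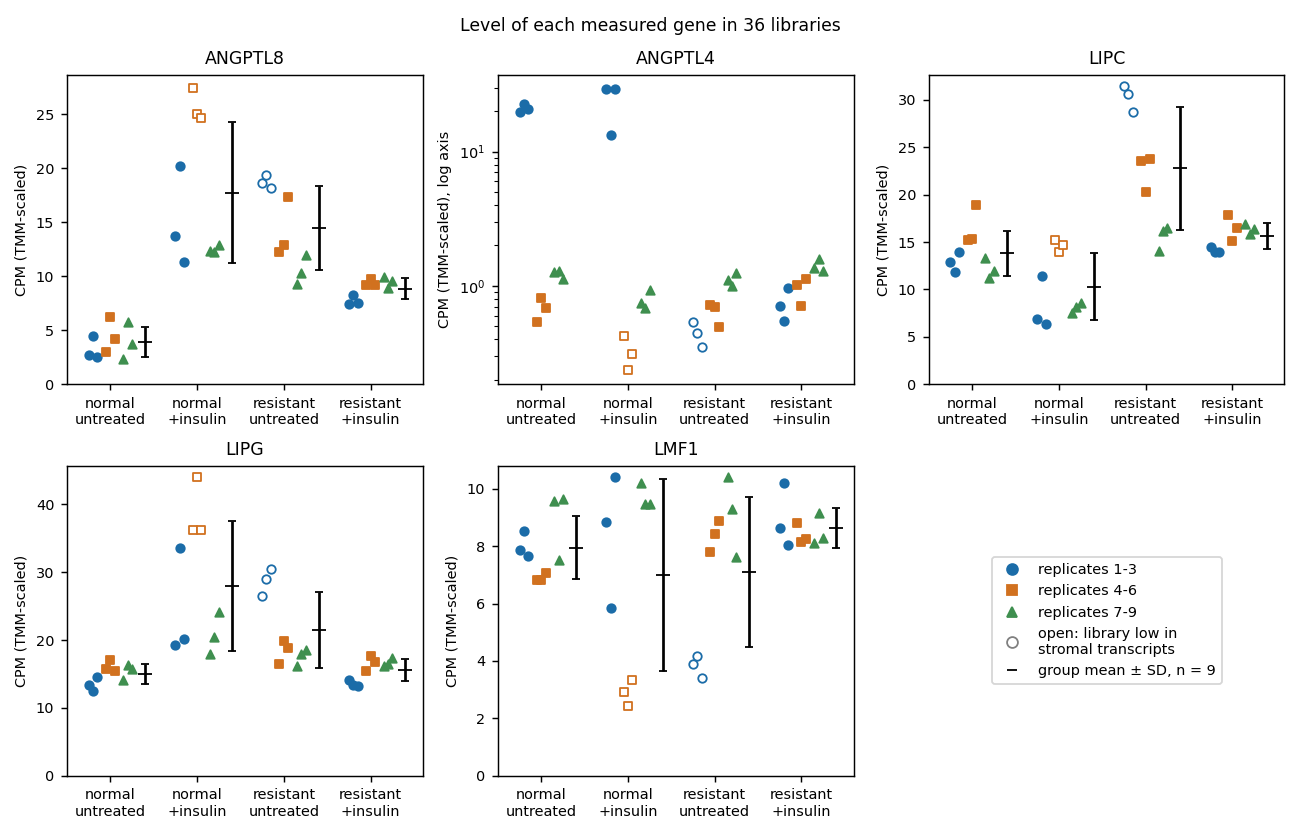
Level of ANGPTL8, ANGPTL4, LIPC, LIPG and LMF1 in each of the 36 libraries, in TMM-scaled CPM, by group (x axis) and replicate triplet (colour and shape); open symbols are the 6 libraries low in stromal transcripts and bars give the group mean ± SD (n = 9), left out for ANGPTL4, whose axis is logarithmic. ANGPTL8 was lowest in untreated normal medium (2.39 to 6.19 CPM), ANGPTL4 was high in 2 triplets only, and LMF1 was lowest in the open symbols.

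ANGPTL4, the fasting-induced inhibitor, differed mainly between triplets. In untreated normal medium replicates 1-3 were at 21.2 ± 1.49 CPM (SD, n = 3), against 0.676 ± 0.134 CPM for replicates 4-6 and 1.22 ± 0.0857 CPM for replicates 7-9. In normal medium with insulin replicates 1-3 were at 23.9 ± 9.32 CPM, against 0.322 ± 0.0942 and 0.791 ± 0.13 CPM. These 6 high libraries lay between 13.2 and 29.5 CPM, and the other 30 between 0.235 and 1.59 CPM, with none between. Replicates 1-3 were 31.4-fold and 17.4-fold above the other triplets of untreated normal medium, and 74.2-fold and 30.2-fold above those with insulin. The triplet accounted for 98.2% of the variance of ANGPTL4 within groups on log2(CPM + 0.5), against a median of 76.3% over the genes tested.

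The high libraries were not of 1 label date. Replicates 1 and 3 of untreated normal medium carry the date 22 April and replicate 2 that of 11 April, and replicates 7-9 of the same group carry these dates too, at 1.12 to 1.29 CPM. In normal medium with insulin, replicate 2, the lowest of the high libraries at 13.2 CPM, is dated 24 May. The stromal sum of the 6 high libraries was 19000 to 43000 CPM, inside the range of the 24 remaining stroma-bearing libraries, where ANGPTL4 was 0.498 to 1.59 CPM. The 6 stroma-low libraries held the lowest ANGPTL4 level, 0.235 CPM, and reached 0.534 CPM. In resistant medium the triplet means ran from 0.443 to 1.11 CPM untreated and from 0.742 to 1.42 CPM with insulin.

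**Figure D2:**
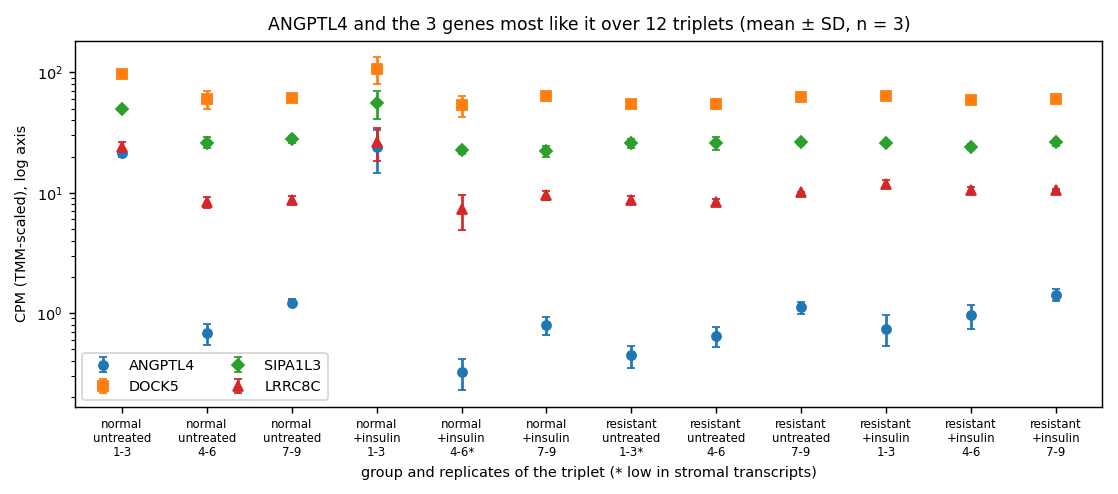
Mean ± SD (n = 3) in TMM-scaled CPM, on a logarithmic axis, of ANGPTL4 and the 3 genes most like it for each of the 12 triplets (x axis; an asterisk marks the triplets low in stromal transcripts). All 4 genes were highest in replicates 1-3 of normal medium, without and with insulin, where ANGPTL4 was at 21.2 and 23.9 CPM.

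The 3 genes most like ANGPTL4 over the triplet means were DOCK5, an activator of Rac (r = 0.979), SIPA1L3, a protein of the Rap GTPase-activating family (0.974), and LRRC8C, a subunit of volume-regulated anion channels (0.968). LRRC8C was at 24.2 and 26.5 CPM in the 2 triplets with high ANGPTL4 and at 7.29 to 11.9 CPM in the other 10. The same contrast was smaller for SIPA1L3, at 49.7 and 55.3 CPM against 22.1 to 27.8 CPM, and for DOCK5, at 97.2 and 107 CPM against 53.6 to 64.0 CPM. Of the 17983 genes tested, 1208 (6.72%) had their highest 2 triplet means in these same triplets. Target genes of known inducers of ANGPTL4 were looked up in 4 lists. None of 6 PPAR targets and 4 TGF-beta targets had its highest means there, among 9 hypoxia targets PFKFB4 did, and among 5 glucocorticoid targets DUSP1 did. Beside a share of 6.72% over all genes, lists of 4 to 9 genes are too short for these counts to be read. Whether any inducer acted in these triplets was not tested.

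The fitted group differences of ANGPTL4 rest on the same 2 triplets and are descriptions. Insulin gave a log2 difference of 0.34 ± 0.88 (SE) in normal medium and 0.08 ± 0.99 in resistant medium. Resistant minus normal medium was -2.97 ± 0.95 among untreated cells and -3.24 ± 1.06 among stimulated cells. With replicates 1-3 of untreated normal medium left out the first of these was -0.38 ± 0.79, and with replicates 1-3 of normal medium with insulin left out the second was 0.62 ± 0.70. The insulin difference in normal medium was 2.87 ± 0.90 without the former triplet and -3.72 ± 0.75 without the latter. The interaction, -0.27 ± 1.44 with all libraries, was 3.48 ± 1.02 without the latter. Without the 6 stroma-low libraries the differences between media were -2.48 ± 1.01 and -4.09 ± 1.03. Within the 11 April batch they were -3.82 and 0.99, and within the 22 April batch -3.92 and -3.92.

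LIPG, endothelial lipase, rose with insulin in normal medium and not in resistant medium. Its level ran from 12.5 to 17.1 CPM (median 15.5 CPM) in untreated normal medium and from 18.0 to 44.1 CPM (median 24.2 CPM) with insulin. In resistant medium it ran from 16.1 to 30.4 CPM (median 18.8 CPM) untreated and from 13.2 to 17.6 CPM (median 16.1 CPM) with insulin. The groups in normal medium did not overlap, nor did the insulin-stimulated groups of the 2 media, where normal medium was higher. How many of all genes lay apart in this way was not counted, so this separation is a description.

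The rise of LIPG with insulin in normal medium was 0.90 ± 0.15 on the log2 scale (edgeR quasi-likelihood test, adjusted p = 1.38e-05), and 0.51 ± 0.08 without the 6 libraries (adjusted p = 2.06e-05). In this comparison 24.9% of the genes tested were higher and 10.2% lower. Of LIPG, LIPC and LMF1, the first was higher, the second lower, and LMF1 did not pass. With each triplet summed to 1 sample (n = 3 a group) the call of LIPG was lost, at 0.79 ± 0.25 (adjusted p = 0.112). Within the 22 April batch the difference of LIPG was 0.63 ± 0.27 (adjusted p = 0.222) and within the 11 April batch 1.03 ± 0.25 (adjusted p = 0.0457). In resistant medium LIPG differed with insulin by -0.49 ± 0.16 (adjusted p = 0.0995), and by -0.13 ± 0.10 without the 6 libraries. This difference was called without replicates 4-6 or 7-9 of untreated resistant medium (-0.64 and -0.67) or of normal medium with insulin (-0.51 each). None of the 17983 genes passed in that comparison (0%), although 4490 had an unadjusted p under 0.05 and the DESeq2 test called 50 genes higher and 39 lower. This count depended on the fit: 508 were higher and 1555 lower with no batch term, 1205 and 2807 with the 2 groups fitted alone, and 1348 and 3710 without replicates 7-9 of untreated resistant medium.

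The insulin response of LIPG was lower in resistant than in normal medium by -1.40 ± 0.22 (interaction, adjusted p = 1.21e-05), and by -0.64 ± 0.13 without the 6 libraries (adjusted p = 0.000461). The interaction was negative for 23.5% and positive for 6.22% of the genes tested, and of LIPG, LIPC and LMF1 the first alone was called. With triplets summed the interaction of LIPG was -1.29 ± 0.35 and not called (adjusted p = 0.187), with 1 gene of all tested positive and 4 negative. Resistant medium was associated with higher LIPG in untreated cells, by 0.52 ± 0.15 (adjusted p = 0.0113). That call was lost without the 6 libraries, at 0.18 ± 0.09 (adjusted p = 0.116), without replicates 1-3 of untreated resistant medium (0.19) and without replicates 1-3 of untreated normal medium (0.45). In the 24 May triplets LIPG was 16.1 ± 0.822 CPM (SD, n = 3) in normal and 18.3 ± 1.74 CPM in resistant medium. Among stimulated cells LIPG was lower in resistant medium by -0.88 ± 0.16 (adjusted p = 5.43e-05), and by -0.46 ± 0.09 without the 6 libraries. With triplets summed neither difference between media was called for LIPG (0.52 ± 0.25 and -0.77 ± 0.25).

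LIPG followed ANGPTL8 over the 12 triplet means (r = 0.847), with both highest in the stroma-low triplet of normal medium with insulin, where LIPG was at 38.8 ± 4.53 CPM (SD, n = 3). The genes most like LIPG were MRPS31P5 (r = 0.989), YTHDF1, a reader of m6A in RNA (0.985), and RASGRF2, an exchange factor for Ras (0.984). MRPS31P5 is a pseudogene, so its reads may be shared with its parent gene.

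LIPC, hepatic lipase, was lower with insulin in normal medium. Its level was higher in resistant than in normal medium, both in untreated and in stimulated cells. In untreated normal medium it ran from 11.2 to 18.9 CPM (median 13.3 CPM), and with insulin from 6.32 to 15.2 CPM (median 8.55 CPM). In resistant medium it ran from 14.1 to 31.4 CPM (median 23.5 CPM) untreated and from 13.9 to 17.9 CPM (median 15.8 CPM) with insulin. The ranges of the groups compared overlapped in every pair, and the 3 highest libraries of untreated resistant medium (28.7 to 31.4 CPM) were the stroma-low ones.

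With insulin in normal medium LIPC fell by 0.40 ± 0.16 on the log2 scale (adjusted p = 0.0489), a call close to the threshold. It was lost without replicates 1-3 (-0.37) or 7-9 (-0.27) of the insulin group, without replicates 4-6 of untreated normal medium (-0.45) and without replicates 4-6 of stimulated resistant medium (-0.45). Without the 6 stroma-low libraries the fall was larger and called, at -0.80 ± 0.08 (adjusted p = 1.03e-08). Within the 22 April batch the difference was -0.70 ± 0.27 and within the 11 April batch -0.11 ± 0.29, neither of them called. Among the stroma-bearing triplets with insulin LIPC was at 8.22 ± 2.8 and 8.08 ± 0.52 CPM (SD, n = 3), against 12.2 to 16.4 CPM in the triplets without insulin. The stroma-low triplet with insulin was at 14.6 ± 0.58 CPM.

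Resistant medium was associated with higher LIPC in untreated cells, by 0.74 ± 0.16 (adjusted p = 0.000663) and by 0.34 ± 0.08 without the 6 libraries (adjusted p = 0.00204). Leaving out replicates 1-3 of untreated resistant medium alone gave 0.34 ± 0.14, which was not called. In the 24 May triplets LIPC was at 16.4 ± 2.11 CPM (SD, n = 3) in normal and 22.5 ± 1.96 CPM in resistant medium. LIPC and LIPG were thus both higher in this comparison, and LMF1 did not pass. Among stimulated cells LIPC was higher in resistant medium by 0.65 ± 0.17 (adjusted p = 0.00233), and by 1.11 ± 0.09 without the 6 libraries. Of the genes tested in that comparison 12% were higher and 26.3% lower; LIPC was higher, LIPG lower, and LMF1 did not pass. With triplets summed no difference of LIPC was called (-0.52 ± 0.28 with insulin in normal medium, 0.71 ± 0.28 and 0.66 ± 0.28 between media). On the hepatocyte scale the shares over all genes moved. Among stimulated cells 6374 were higher and 617 lower, and among untreated cells 3661 and 393. In the interaction 962 were positive and 1055 negative. The differences of LIPC, LIPG and ANGPTL8 between media on that scale are not given here.

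The sign of the LIPC interaction depended on the libraries. It was -0.09 ± 0.23 with all libraries (adjusted p = 0.783) and 0.77 ± 0.12 without the 6 (adjusted p = 2.38e-05). Scaled to hepatocyte genes in place of all genes it was 0.40 ± 0.06 (adjusted p = 2.29e-05). The insulin difference of LIPC within resistant medium was -0.49 ± 0.17 (adjusted p = 0.101) with all libraries, -0.03 ± 0.09 without the 6 and 0.00 ± 0.05 on the hepatocyte scale. It was called without replicates 4-6 (-0.61) or 7-9 (-0.74) of untreated resistant medium and without replicates 4-6 of normal medium with insulin (-0.49). Most like LIPC over the triplet means were LRRC20 (r = 0.990), BST2, the antiviral protein tetherin (0.990), and DENND1C, an exchange factor for Rab GTPases (0.988).

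**Figure D3:**
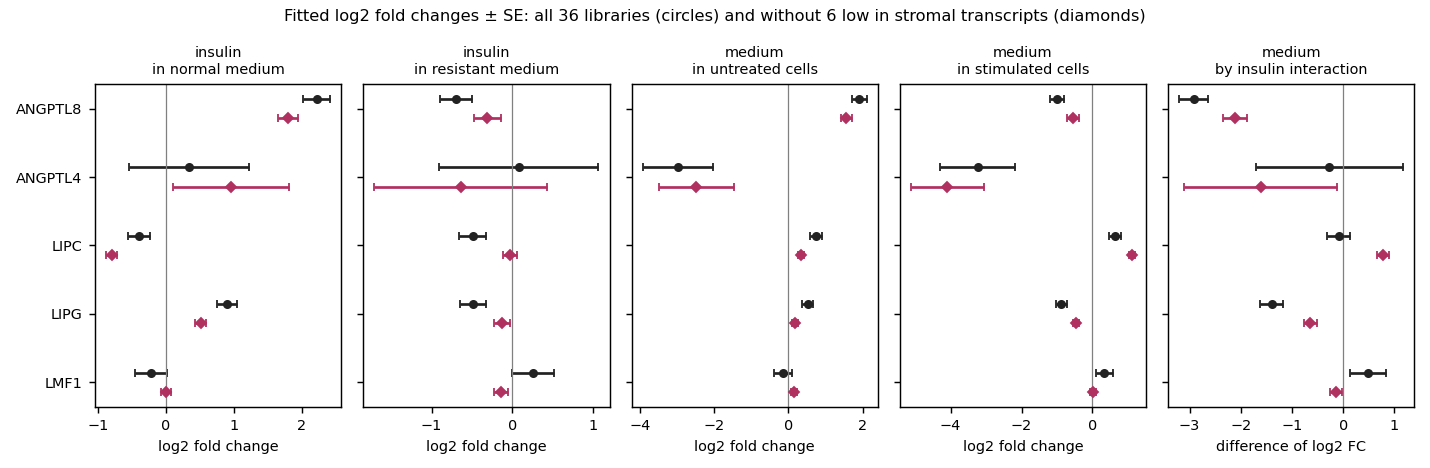
Fitted log2 fold changes ± SE (x axis) of ANGPTL8, ANGPTL4, LIPC, LIPG and LMF1 in the 5 comparisons, with all 36 libraries (circles) and without the 6 low in stromal transcripts (diamonds). LIPG rose with insulin in normal medium in both fits (0.90 and 0.51), the LIPC interaction moved from -0.09 to 0.77, and ANGPTL4 had the widest errors.

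LMF1, the folding factor of the lipases, differed with stromal content and was called in no group comparison with all libraries. Over the groups its medians were 7.66 CPM in untreated normal medium, 8.83 CPM with insulin, 7.78 CPM in untreated resistant medium and 8.28 CPM with insulin there. The 6 stroma-low libraries lay at 2.43 to 4.17 CPM and the 30 others at 5.85 to 10.4 CPM. The triplet accounted for 90.8% of its variance within groups, and for 32.2% without the 6 libraries. Without them its log2 difference with insulin in normal medium was 0.00 ± 0.08 and in resistant medium -0.14 ± 0.09, and between media 0.16 ± 0.08 in untreated and 0.02 ± 0.08 in stimulated cells, none of them called. The difference in stimulated cells, 0.34 ± 0.25 with all libraries, was called without replicates 7-9 of normal medium with insulin (0.69 ± 0.28, adjusted p = 0.0447). Its closest genes over the triplets were CYB5R3, a cytochrome b5 reductase (r = 0.995), CACNB3, a calcium channel subunit (0.994), and the class I antigen HLA-C (0.994). LMF1 shares 174 exonic bases with AC009041.2 on its own strand and 220 with LMF1-AS1 on the other, so part of its counts cannot be assigned with certainty.

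LPL, lipoprotein lipase itself, was barely read. Over all 36 libraries 16 counts were read among 2439954270, with a count in 8 libraries and at most 5 in any. By group there were 8 counts in untreated normal medium, 7 with insulin, 0 in untreated resistant medium and 1 with insulin there. The 0 counts among 569906843 allow a level of up to 0.00526 CPM, by counting error alone. LPL did not pass the filter on low counts and was not tested between groups.

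Levels can be set beside each other between genes only per length. Divided by the length of the principal transcript, ANGPTL8 was at 3.18 ± 1.14 CPM per kb (SD, n = 9) in untreated normal medium, LIPC at 5.02 ± 0.861, LMF1 at 3.03 ± 0.415 and LIPG at 1.44 ± 0.141 CPM per kb. By this length LIPC was the highest of these 4, while ANGPTL8 and LMF1 differed by less than their spread. The order can change with the length used. Over all annotated exons LIPC spans 5184 bases and LMF1 8233, against 2751 and 2621 in the principal transcript, while ANGPTL8 stays at 1223. Levels by those lengths are not given here. With insulin ANGPTL8 was the highest, at 14.5 ± 5.33 CPM per kb, followed by LIPC at 3.75 ± 1.29, with LIPG at 2.68 ± 0.92 and LMF1 at 2.67 ± 1.28 CPM per kb. In untreated resistant medium ANGPTL8 was at 11.8 ± 3.18 and LIPC at 8.28 ± 2.35 CPM per kb, within their spread of each other. In resistant medium with insulin ANGPTL8 was at 7.25 ± 0.768, LIPC at 5.69 ± 0.5, LMF1 at 3.29 ± 0.269 and LIPG at 1.49 ± 0.161 CPM per kb. By the principal transcript LIPG had the lowest mean of the 4 in every group but normal medium with insulin, where LMF1 was level with it. The principal transcript of LIPG, at 10441 bases, is the longest of them.

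Of 5 further ANGPTL genes, ANGPTL1, ANGPTL2 and ANGPTL6 passed the filter on low counts, and ANGPTL5 and ANGPTL7 had at most 6 counts in a library. ANGPTL1, a secreted member without known action on lipases, ran from 1.73 to 2.53 CPM in untreated normal medium. Elsewhere its triplet means were 0.137 to 0.607 CPM. It fell by 3.12 ± 0.28 with insulin in normal medium (adjusted p = 2.65e-10) and by 2.36 ± 0.26 with resistant medium in untreated cells (adjusted p = 2.59e-08), on the log2 scale. With insulin in resistant medium the difference was 0.28 ± 0.28 (adjusted p = 0.522), and the interaction was 3.41 ± 0.38 (adjusted p = 1.26e-07). Among stimulated cells ANGPTL1 was instead higher in resistant medium, by 1.05 ± 0.28 (adjusted p = 0.00313). ANGPTL2 was lowest in the stroma-low triplets, with means of 2.96 and 3.38 CPM against 18.4 to 72.3 CPM in the others. Its relation to the stromal sum among the stroma-bearing libraries was not tested. ANGPTL2 was called in none of the comparisons with all libraries. Without the 6 libraries ANGPTL2 was higher with insulin in normal medium (0.94 ± 0.34, adjusted p = 0.0347), and the calls of ANGPTL1 held.

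**Figure D4:**
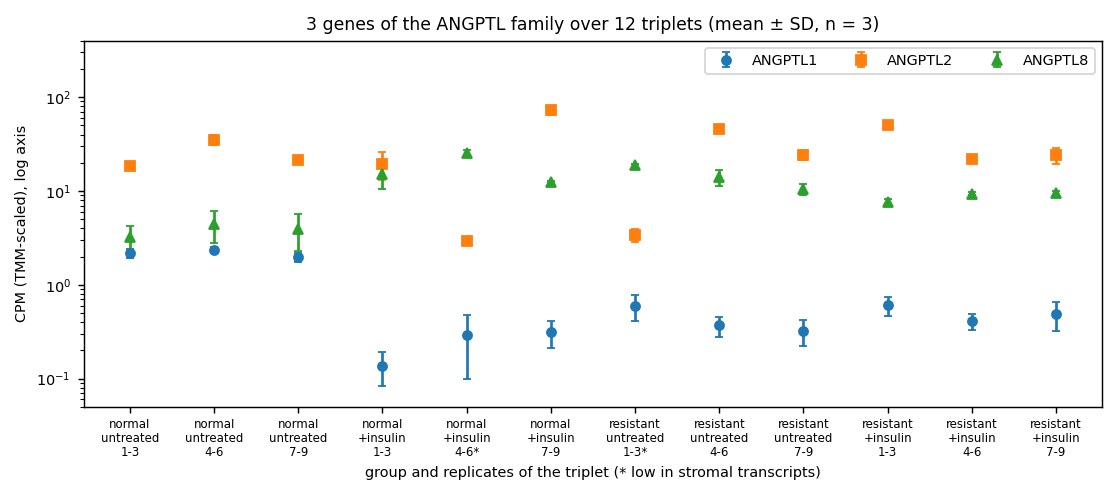
Mean ± SD (n = 3) in TMM-scaled CPM, on a logarithmic axis, of ANGPTL1, ANGPTL2 and ANGPTL8 in the 12 triplets (x axis; an asterisk marks the triplets low in stromal transcripts). ANGPTL1 and ANGPTL8 moved in opposite directions between untreated normal medium and the other groups, and ANGPTL2 was lowest in the triplets marked with an asterisk.

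Of 7 further genes of the pancreatic lipase family, LIPH alone passed the filter. LIPH makes lysophosphatidic acid, and its group means were 0.35 ± 0.104 CPM (SD, n = 9) in untreated normal medium, 0.203 ± 0.0745 CPM with insulin, 0.698 ± 0.145 CPM in untreated resistant medium and 0.561 ± 0.154 CPM with insulin. It fell with insulin in normal medium by 0.78 ± 0.22 (adjusted p = 0.00509) and was higher in resistant medium by 0.99 ± 0.21 in untreated cells (adjusted p = 0.000517) and 1.55 ± 0.23 in stimulated cells (adjusted p = 1.57e-06). The directions are those of LIPC. These 3 calls held without the 6 libraries, where the interaction was called too (1.19 ± 0.31, adjusted p = 0.00667).

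Genes for the folding, transport and cleavage of lipases were read through 12 genes. With insulin in normal medium 3 were higher and 0 lower, and the median log2 difference was 0.08 against 0.03 over all genes tested. Of all genes 24.9% were higher and 10.2% lower, so the count of 3 was near that share. The 3 were SEL1L, an adaptor of protein degradation in the endoplasmic reticulum that LPL needs to leave it (1.03 ± 0.15, adjusted p = 1.18e-06), and the lectin chaperones calreticulin (CALR, 0.77 ± 0.09) and calnexin (CANX, 0.54 ± 0.08). Between media in untreated cells 3 were higher and 1 lower, beside 13.3% higher and 8.62% lower of all genes. LRPAP1, a chaperone of lipoprotein receptors, rose by 0.21 ± 0.06. PCSK5, a convertase that can cleave LIPG, was also higher (1.53 ± 0.23, adjusted p = 5.21e-06), as was the heparan sulfate proteoglycan SDC1 (0.52 ± 0.07), while FURIN, which can cleave ANGPTL proteins and LIPG, was lower (-0.66 ± 0.16, adjusted p = 0.00227). Between media in stimulated cells 2 were higher, SDC1 and PCSK5, and 4 lower, CALR (-0.81 ± 0.09), CANX (-0.49 ± 0.09), SEL1L (-0.82 ± 0.16) and PCSK6 (-0.69 ± 0.19). Of all genes 12% were higher and 26.3% lower there. The interaction was called for 4 of the 12, all negative: CALR, CANX, SEL1L and PCSK6. It was negative for 23.5% and positive for 6.22% of all genes. LRPAP1 and PCSK6 were named after their values were seen, as were PCSK5 and SEL1L between media in stimulated cells. With the 6 libraries left out, LRPAP1 (0.14), PCSK5 in stimulated cells (0.50) and PCSK6 there (-0.20) did not pass, and in the interaction CANX (-0.27) and PCSK6 (0.17, adjusted p = 0.353) did not, while SORL1, a sorting receptor, was positive (0.65 ± 0.14) and PCSK5 negative (-1.09 ± 0.33). In that fit SORL1 was lower with insulin in normal medium (-0.57) and in resistant medium untreated (-0.48), and of the 12 genes 4 were higher and 2 lower with insulin in normal medium and 3 and 3 between media in untreated cells. LMF1 itself passed in none of these comparisons.

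Of 7 apolipoproteins that activate or inhibit lipases, 4 were lower and 0 higher with insulin in normal medium, with a median of -0.42. Of all genes 10.2% were lower and 24.9% higher. APOA5, an activator of LPL that can bind ANGPTL8, fell by 1.43 ± 0.19 (adjusted p = 3.27e-07). APOC3, an inhibitor of LPL, fell by 0.89 ± 0.16 (adjusted p = 2.44e-05), and APOC2, its cofactor, by 0.49 ± 0.16 (adjusted p = 0.0149). The other gene called was APOC1 (-0.42 ± 0.14), named after its value was seen. Without the 6 libraries 6 of the 7 were lower (APOA5, APOC3, APOC2, APOC1, APOA4 and APOE), as were 8 of the 12 hepatocyte markers; over all 18230 genes of that fit 2802 were higher and 3294 lower. Between media in untreated cells APOC3 was the 1 gene called, at -0.86 ± 0.16 (adjusted p = 8.19e-05), and without the 6 libraries 5 were lower (APOC3, APOA5, APOA4, APOC1 and APOE). In that fit 9 of the 12 hepatocyte markers were lower too, and over all genes 1948 were higher and 2918 lower. Between media in stimulated cells 0 were higher and APOE was lower (-0.57 ± 0.16, adjusted p = 0.00643), whereas without the 6 libraries APOA5, APOC2 and APOC1 were higher and 0 lower. Of all genes 12% were higher and 26.3% lower with all libraries, and 3236 and 3320 of 18230 without the 6. The interaction was positive for APOA5 (0.71 ± 0.27) and negative for APOE (-0.61 ± 0.22), and without the 6 libraries positive for APOA5, APOC3, APOA4, APOC2 and APOC1, alongside 6 of the 12 hepatocyte markers.

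Of 5 receptors for lipoproteins and fatty acids, 2 were higher and 0 lower with insulin in normal medium, with a median of 0.54, beside 24.9% higher and 10.2% lower of all genes. The 2 receptors were the HDL receptor SCARB1 (0.54 ± 0.13, adjusted p = 0.00134) and the remnant receptor LSR (0.56 ± 0.16, adjusted p = 0.0055). Both were also higher in resistant medium in untreated cells, LSR by 1.01 ± 0.16 (adjusted p = 1.42e-05). The fatty acid transporter CD36 passed beside SCARB1 with insulin in normal medium without the 6 libraries (0.97). LSR did not pass with insulin in normal medium without the 6 libraries (0.15 ± 0.08, adjusted p = 0.159), and SCARB1 did not pass between media in untreated cells (0.08 ± 0.05). The interaction was negative for SCARB1 and LSR with all libraries, where it was negative for 23.5% of all genes. Without the 6 libraries it was negative for 0 of the 5, and for 1709 of 18230 genes.

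Genes that answer to the known regulators of ANGPTL4 and ANGPTL8 were read with insulin in normal medium, where 24.9% of all genes were higher and 10.2% lower. Of 6 PPAR targets 1 was higher and 3 lower: the droplet coat PLIN2 rose by 1.11 ± 0.12 (adjusted p = 5.64e-09), and the transcription factor CREB3L3 fell by 1.28 ± 0.17 (adjusted p = 3.41e-07). CPT1A, which brings fatty acids into mitochondria (-0.47 ± 0.13), and FABP1, a fatty acid carrier named after its value was seen (-0.42 ± 0.15), fell too. Of 9 hypoxia targets VEGFA (0.76 ± 0.14) and CA9 (1.33 ± 0.28) rose and PFKFB4 fell (-0.72 ± 0.27), the last not without the 6 libraries (-0.53, adjusted p = 0.14). Of 5 glucocorticoid targets tested PER1 (0.64 ± 0.07) and FKBP5 (0.77 ± 0.13) rose, and of 4 TGF-beta targets SMAD7 fell by 0.74 ± 0.24. Of 9 genes around ChREBP, LXR and SREBP1, which are known to act on ANGPTL8, SREBF1 (0.43 ± 0.08) and FASN (0.42 ± 0.15) rose and PNPLA3 fell by 0.73 ± 0.13. Without the 6 libraries SREBF1 was higher, PNPLA3, NR1H3, MLXIPL and SCD were lower, and FASN differed by 0.03 ± 0.09.

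Between media in untreated cells 3 of the 6 PPAR targets were higher and 0 lower, beside 13.3% higher and 8.62% lower of all genes. The fatty acid carrier FABP1 rose by 1.03 ± 0.15 (adjusted p = 4.37e-06), PLIN2 rose by 0.71 ± 0.12, and ACADVL, an enzyme of fatty acid oxidation, by 0.32 ± 0.11. Leaving out the 6 libraries, ACADVL did not pass (0.19, adjusted p = 0.342) and CREB3L3 was lower (-0.82, adjusted p = 1.88e-06). Of the ChREBP, LXR and SREBP1 list 2 of 9 were higher, SREBF1 by 0.23 ± 0.08 and ELOVL6 by 0.32 ± 0.11, and without the 6 libraries 0 were higher while MLXIPL and NR1H3 were lower. Of 9 hypoxia targets CA9 was higher (1.22 ± 0.28, adjusted p = 0.00142), a call lost without the 6 libraries (0.70, adjusted p = 0.0599). Of 5 glucocorticoid targets PER1 was lower (-0.31 ± 0.07, adjusted p = 0.00137), and the TGF-beta list had 0 calls among 4. ANGPTL8 differed by 1.91 on the log2 scale in the same comparison.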

How the data were processed

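Poly-A RNA was sequenced in strand-specific libraries, per the labels' protocols. The deposited table holds expected counts, that is estimated counts per Ensembl gene, of which 15.5% of values are not whole. STAR, Salmon and GRCh37 are named, per the submitters' processing notes; their versions, the annotation and counting settings were not given in the sources used here. Symbols came from GENCODE through the Ensembl identifier and matched 51994 genes (90.0%).

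The rounded counts entered edgeR 4.0.16 under R 4.3.3 (scaling by TMM, filterByExpr, robust quasi-likelihood F-test, a coefficient per group plus the label date as batch), with p-values adjusted by Benjamini-Hochberg over 17983 genes and called under 0.05. ANGPTL4 and ANGPTL8 were fitted like the rest, but their differences are given without p-values. SE is that of the log2 fold change. The batch of 22 April held 4, 5, 4 and 3 libraries of the 4 groups in the order given below, that of 11 April 2, 2, 2 and 6, and that of 24 May 3, 2, 3 and 0. Totals of 26613307 to 116763907 counts set a floor of 3 counts at 0.0257 to 0.113 CPM; this covers counting error only. Likeness is Pearson's r of log2(CPM + 0.5) over the triplet means, among 11258 genes with a symbol and a mean of at least 5 CPM.

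The members, gene lists, tests and alternatives were chosen with earlier results of these data known. The text names the members, the 3 genes most like each, and up to 3 genes per list with the smallest adjusted p; some list genes are not reported here, and counts leave them out. Alternatives were other scalings (DESeq2 1.42.0 size factors, averaged TMM factors, hepatocyte genes), the DESeq2 test, no filter, no batch term, the replicate block, fewer groups, summed triplets, single batches, and leaving out the 6 libraries or each triplet. Summed triplets are given for other genes only as counts over all genes, so calls of list genes rest on libraries entered singly. The fit was tested on simulated data. Same-numbered libraries of the 2 normal-medium groups deviated together in all 9 pairs (r = 0.106 to 0.396). Differently numbered libraries of the same triplets were not compared, so this check cannot show pairing by number. The labels give no pairing either. Libraries of 1 group differed beyond sampling noise in all 144 pairs. Promoter windows and starts are RefSeq's on GRCh38.p14.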

Additional observations from a re-analysis of the deposited data

Results flagged for a closer look

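Replicate 2 of resistant medium with insulin stood apart from its group in LMF1, at 10.2 CPM. It was the 1 such case among 20 sets of libraries looked at (5 genes in 4 groups), and chance gives about 1 in 20.

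With every library entered singly, the response to insulin differed between the media by a test of the difference itself. It is given as resistant minus normal medium on the log2 scale (edgeR, adjusted p under 0.05 over all genes tested). For LIPG the difference was -1.4, and for ANGPTL1 it was 3.41. Among genes of lipase folding it was -0.77 for CALR, -0.62 for CANX and -0.89 for SEL1L. Among apolipoproteins it was -0.61 for APOE and 0.71 for APOA5. Among the receptors it was -0.92 for SCARB1 and -1.08 for LSR. Among PPAR targets it was -1.41 for PLIN2 and 0.71 for CREB3L3. Among targets of hypoxia, glucocorticoids and TGF-beta it was -0.92 for VEGFA, -1.52 for CA9, -1.07 for FKBP5, -0.48 for PER1 and 1.05 for SMAD7. For the lipogenic genes SREBF1 and FASN it was -0.55 and -0.84. Without the 6 libraries low in stromal transcripts CANX, APOE, SCARB1, LSR, CA9, SMAD7, SREBF1 and FASN did not pass. The triplet accounted for a median of 76.3% of the variance within groups over the genes tested. With each triplet summed, 1 gene of 20446 was positive in this difference and 4 were negative, against 1119 and 4233 of 17983. LIPG was not called with triplets summed, and the other genes named here are not given in that fit. Their calls may therefore depend on differences between triplets.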

How the results depend on the processing

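Counts of members past the threshold, of 4 (ANGPTL4, LIPC, LIPG and LMF1, with ANGPTL8 as a 5th between media in untreated cells), moved as follows. ANGPTL4 and ANGPTL8 enter them as descriptions. A count can thus rest on a gene that chose the part, so the counts show only how calls depend on the fit. With triplets summed they were 0 in every comparison but that of media in untreated cells. There 1 was higher, which was neither LIPG nor LIPC, and 0 were lower. Of all 20446 genes 386 were higher and 99 lower there. Within the 22 April batch 0 were called with insulin in normal medium, in the interaction and among stimulated cells, and 1 higher and 0 lower in untreated cells. Within that of 11 April 0 were lower with insulin, 1 higher and 0 lower in untreated cells, and 0 higher and 1 lower in stimulated cells. Of all genes in untreated cells 474 were higher and 137 lower within 22 April, and 339 and 36 within 11 April. In stimulated cells 960 were higher and 1930 lower within 11 April. With the groups compared alone 0 were lower with insulin in normal medium, 2 were lower in resistant medium and 1 was lower in stimulated cells. Of all genes 1847, 2807 and 2812 were lower in these comparisons. With no batch term 2 were lower with insulin in resistant medium, where 508 of all genes were higher and 1555 lower. Scaled to hepatocyte genes 0 were lower in untreated cells and 1 was higher in the interaction, as without the 6 stroma-low libraries. On that scale 393 of all genes were lower in untreated cells and 962 positive in the interaction. Leaving out each triplet gave 1 to 2 higher and 0 to 1 lower with insulin in normal medium, 0 to 2 lower in resistant medium, 1 to 3 higher and 0 to 1 lower in untreated cells, 1 to 2 higher and 1 to 2 lower in stimulated cells, and 0 to 1 higher in the interaction.

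The labels do not say what same-numbered libraries share, and 54 same-numbered pairs over all groups had correlations of -0.82 to 0.738 (median 0.064). With the replicate block 2 members were lower with insulin in resistant medium (of all genes 1245 were higher and 1875 lower there, against 0), 0 lower in untreated and 1 lower in stimulated cells, and ANGPTL4 turned to -0.22 with insulin in normal medium and 0.68 in the interaction. In normal medium the block changed no call of LIPG (0.86), LIPC (-0.45) or LMF1.

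Signs turned for ANGPTL4 with insulin in normal medium (-0.10 summed, -4.35 within 11 April; -3.72 to 2.87 over left-out triplets) and in resistant medium (-0.64 without the 6 libraries; -0.45 to 0.49), among stimulated cells (0.99 within 11 April; -4.06 to 0.62) and in the interaction (0.37 with no batch term, 0.58 summed, 4.81 within 11 April; -2.39 to 3.48). LMF1 turned with insulin in normal medium (-0.53 to 0.05 over left-out triplets) and in resistant medium (-0.14 without the 6; -0.16 to 0.50), between media in untreated cells (0.21 hepatocyte scale, 0.16 without the 6; -0.48 to 0.17) and in the interaction (-0.14 without the 6). LIPC turned in the interaction (0.40 hepatocyte scale, 0.05 unfiltered, 0.77 without the 6, 0.12 within 22 April; -0.23 to 0.43) and reached 0.00 with insulin in resistant medium on the hepatocyte scale. The triplet share of ANGPTL4 was 97.8% without the 6 libraries, 97.9% with a pseudocount of 0.1 and 98.2% with DESeq2 size factors. The cause of these moves was not tested.

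Over all genes, calls with insulin in normal medium were 4484 higher and 1843 lower, but 3419 and 2459 with averaged TMM factors; among stimulated cells 2154 and 4733, but 2997 and 3936; and in the interaction 1119 and 4233, but 1815 and 3303. With the 6 left out, 2802 and 3294 were called with insulin, 3236 and 3320 among stimulated cells, and 2266 and 1709 in the interaction. The hepatocyte scale moved the median of all genes to 0.14 with insulin in normal medium, 0.36 in resistant medium, 0.228 and 0.484 between media in untreated and stimulated cells, and 0.244 in the interaction. The within-batch fits rest on 2 to 6 libraries a group, and ANGPTL4 had as few as 9 counts in a library.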

Other observations

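Among stimulated cells, genes that answer to regulators of ANGPTL4 and ANGPTL8 differed between the media as follows (log2 difference of resistant from normal medium, edgeR's quasi-likelihood test). Of all genes 12% were higher and 26.3% lower in this comparison. Of 6 PPAR targets the fatty acid carrier FABP1 was higher in resistant medium (1.00 ± 0.16, adjusted p = 6.8e-06) and the droplet coat PLIN2 lower (-0.69 ± 0.12, adjusted p = 2.97e-05). With the 6 stroma-low libraries left out, FABP1 (1.43) and CREB3L3 (0.77) were higher, and PLIN2 (-0.40) and PDK4 (-1.19) lower. Of 9 hypoxia targets BNIP3 was higher (0.57 ± 0.23) and VEGFA lower (-1.06 ± 0.16), and BNIP3 did not pass without the 6 libraries (0.45, adjusted p = 0.12). Of 5 glucocorticoid targets PER1 (-0.79 ± 0.08) and FKBP5 (-0.82 ± 0.14) were lower, joined without the 6 libraries by DUSP1 (-0.52). Of 9 genes around ChREBP, LXR and SREBP1, PNPLA3 was higher (0.53 ± 0.14), and FASN (-0.64 ± 0.16), SREBF1 (-0.31 ± 0.08) and MLXIPL, the gene of ChREBP (-0.48 ± 0.19), were lower. In this list PNPLA3 (0.81) and NR1H3 (0.21) were higher and 0 lower without the 6 libraries. Of the 12 hepatocyte markers 1 was higher and 9 lower in this comparison, and 2 and 6 without the 6 libraries; their part in these differences was not tested. PDK4, DUSP1, MLXIPL and NR1H3 were named after their values were seen.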
